A study of Mus musculus with 6 samples.

Results

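Calcium handling in striated muscle was followed through 10 genes in dorsal skin of tight-skin (Tsk) and wild-type (WT) mice: Atp2a1, Atp2a2, Sln, Ryr1, Cacna1s, Trdn, Jph1, Casq1, Casq2 and Pvalb. They were chosen by name as genes of the sarcoplasmic reticulum and of calcium buffering, with earlier results of these data known. All 10 were found among the 55291 genes of the deposited count table. RNA of 3 Tsk and 3 WT samples was sequenced at day 40. The Tsk mice are labelled as strain B6.Cg-Fbn1Tsk/J with genotype Fbn1+/-, and the WT mice as C57BL/6, with no other allele or treatment given for either group. Tsk is known as an internal duplication in Fbn1, the fibrillin 1 gene, carried in every cell; the notation Fbn1+/- more often marks a lost copy. Whole skin was homogenised, and mouse back skin includes the panniculus carnosus, a thin sheet of skeletal muscle under the fat. The labels number the samples (Tsk 4, 5 and 6, and WT 1, 2 and 3) without saying that each came from a separate mouse, so the spread behind every p-value is that among 6 samples and may be technical.

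In skeletal muscle an action potential is sensed in the transverse tubule membrane by the voltage sensor Cacna1s, which opens the release channel Ryr1 in the facing sarcoplasmic reticulum. Calcium leaves the store, where calsequestrin holds it, and triggers contraction. SERCA pumps then return it to the store, and in fast fibres parvalbumin binds it in the cytosol and speeds relaxation. Fast and slow fibres use partly different versions of this machinery, with Atp2a1 and Casq1 prominent in fast fibres and Atp2a2 and Casq2 in slow fibres and heart.

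The library totals ran from 17561271 to 19219622 counts after rounding. Fbn1 stood at 1450, 2053 and 1781 CPM (counts scaled to library size with TMM factors) in Tsk 4, 5 and 6 and at 261, 351 and 296 CPM in WT 1, 2 and 3, and rose by 2.54 ± 0.24 (log2 fold change ± SE, edgeR quasi-likelihood test, adjusted p = 0.00401). Skin markers were present in every library, with 4371 to 7833 CPM in Tsk and 4824 to 7319 CPM in WT summed over 8 epidermal genes. Skeletal muscle structural genes other than the 10 (22 genes, such as Ttn, Myh4 and Acta1) summed to 150547, 135979 and 126376 CPM in Tsk 4, 5 and 6 and to 158520, 286377 and 251239 CPM in WT 1, 2 and 3. WT 1 therefore lay near the Tsk libraries in muscle RNA, far below WT 2 and WT 3. Of 19971 genes tested, 544 rose (2.72%) and 139 fell (0.696%) in Tsk at an adjusted p under 0.05, and with library totals alone as the scaling 1695 rose and 96 fell.

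None of the 10 calcium handling genes passed the test across all genes, where 3.42% of genes did (edgeR quasi-likelihood test, adjusted p under 0.05). Their log2 fold changes had a median of -0.80, beside -0.03 over all genes tested and -0.74 over the muscle structural list, and 9 of the 10 lay below 0, as did 53% of all genes. At an unadjusted p under 0.05, 7 of the 10 were lower in Tsk and none higher, beside 7.94% of all genes lower, 12.1% higher and 20.1% in either direction. In 5 of the 10 (Ryr1, Sln, Cacna1s, Trdn and Jph1) every Tsk library lay below every WT library, beside 10.6% of all genes. With library totals as the scaling, chosen after the data were seen, this held for 2 of the 10 (Ryr1 and Jph1), beside 2.59% of all genes. With TMM scaling, in none did every Tsk library lie above every WT library, beside 14.1% of all genes. The calls turned on the tool and on 1 library. DESeq2 called 7 of the 10 lower (Atp2a1, Ryr1, Casq1, Pvalb, Cacna1s, Trdn and Jph1), beside 2.41% of all genes, limma-voom called none, and edgeR without WT replicate 1 called 6 lower (3.01% of all genes). In bulk tissue, fewer muscle cells and less of an RNA per muscle cell cannot be told apart.

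**Figure D1:**
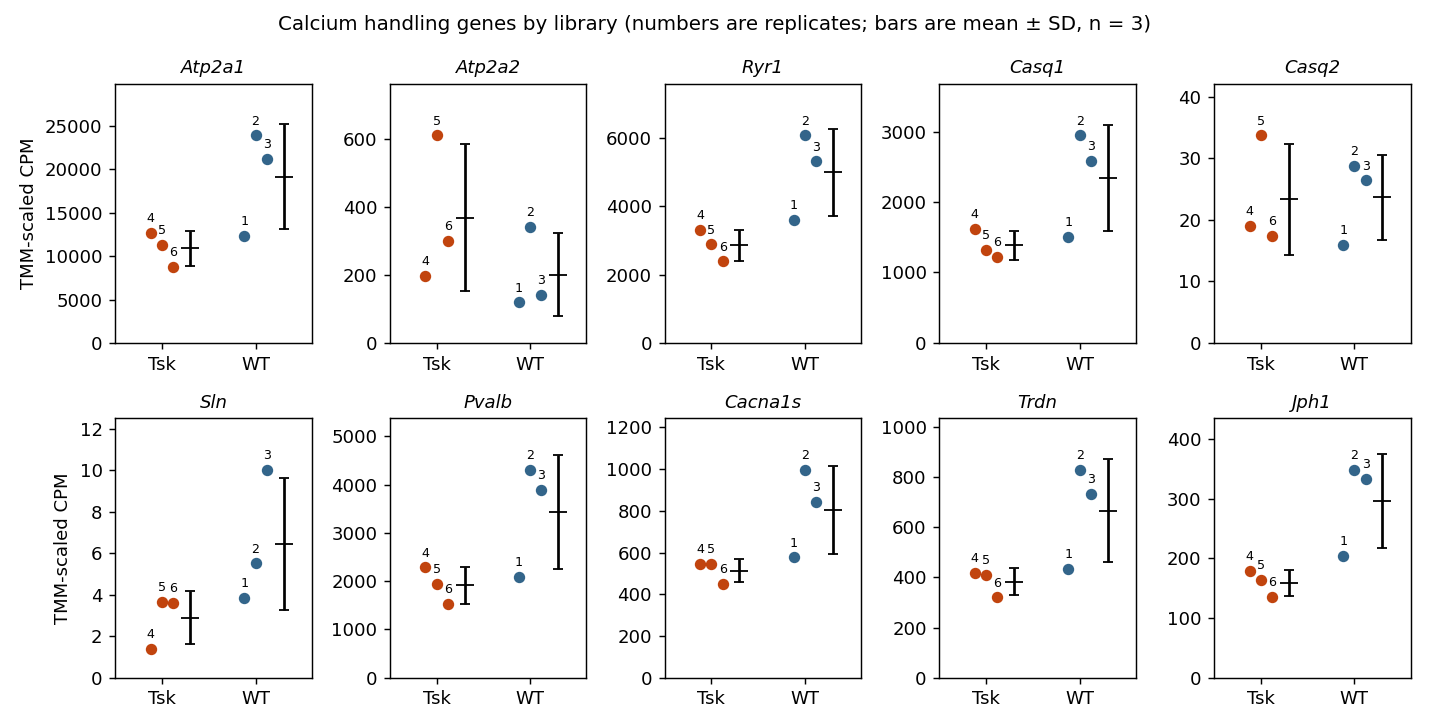
Level of each of the 10 genes in TMM-scaled CPM (vertical axis from 0) in the 3 Tsk and 3 WT libraries, with replicate numbers above the points and mean ± SD beside them. In 7 of the genes WT 2 and WT 3 stand far above the other 4 libraries, while Atp2a2 and Casq2 are highest in Tsk 5, and Sln in WT 3.

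The fitted fold changes of the pump genes had opposite signs, and neither gene passed edgeR's test. Atp2a1 encodes SERCA1, the calcium pump of fast fibres, and its gene spans 126445858 to 126463108 of chromosome 7, minus strand (mm10). It stood at 12714, 11327 and 8714 CPM in Tsk 4, 5 and 6, against 12373, 23903 and 21169 CPM in WT 1, 2 and 3. WT 1 fell within the Tsk range and the groups overlapped, with means of 10918 ± 2031 and 19148 ± 6025 CPM (SD, n = 3 each), a log2 fold change of -0.81 ± 0.36 and an edgeR adjusted p of 0.251. DESeq2 called Atp2a1 lower (log2 fold change -0.80, adjusted p = 0.0302).

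Atp2a2 encodes SERCA2, whose muscle form serves slow fibres and heart while another form maintains the calcium store of most other cells, keratinocytes among them. It spans 122453513 to 122502225 of chromosome 5, minus strand, and the gene-level counts do not tell its forms apart. It was the only one of the 10 above 0, at 197, 611 and 300 CPM in Tsk 4, 5 and 6, against 120, 342 and 141 CPM in WT 1, 2 and 3. Tsk 5 was highest and the groups overlapped through WT 2. The means were 369 ± 216 CPM in Tsk and 201 ± 123 CPM in WT (SD, n = 3 each), with a log2 fold change of 0.88 ± 0.50 (edgeR adjusted p = 0.380), which was 0.31 without Tsk replicate 5 and 1.51 without WT replicate 2.

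Sln encodes sarcolipin, a small membrane protein that binds SERCA and lowers its pumping efficiency. It was the least abundant of the 10, at 27, 78 and 77 counts in Tsk 4, 5 and 6, against 69, 85 and 161 counts in WT 1, 2 and 3. This came to 1.4, 3.65 and 3.62 CPM in Tsk, against 3.84, 5.51 and 10.001 CPM in WT, so that the highest Tsk library lay just under the lowest WT library. With library totals the groups overlapped, at up to 4.08 CPM in Tsk 6 and down to 3.93 CPM in WT 1. The log2 fold change was -1.15 ± 0.44 (edgeR adjusted p = 0.192), and it was -0.67 without WT replicate 3.

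The 4 genes of the release unit lay lower in every Tsk library than in any WT library on the TMM scale. With library totals, Cacna1s (608 CPM in Tsk 5 and 590 CPM in WT 1) and Trdn (455 CPM in Tsk 5 and 445 CPM in WT 1) overlapped. Ryr1, the release channel of skeletal muscle (chromosome 7, 29003344 to 29125179, minus strand), stood at 3292, 2878 and 2385 CPM in Tsk 4, 5 and 6, against 3593, 6065 and 5308 CPM in WT 1, 2 and 3. Cacna1s, the pore and voltage-sensing subunit of the L-type channel of skeletal muscle (chromosome 1, 136052750 to 136119822, plus strand), stood at 546, 547 and 448 CPM in Tsk, against 577, 995 and 844 CPM in WT. For both genes WT 1 was only slightly above the highest Tsk library. Their log2 fold changes were -0.81 ± 0.29 for Ryr1 (edgeR adjusted p = 0.168) and -0.65 ± 0.24 for Cacna1s (edgeR adjusted p = 0.175).

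Trdn encodes triadin, which ties calsequestrin to the release channel. It stood at 417, 409 and 321 CPM in Tsk 4, 5 and 6, against 435, 828 and 735 CPM in WT 1, 2 and 3, a log2 fold change of -0.80 ± 0.26 (edgeR adjusted p = 0.134). Jph1 encodes junctophilin 1, which holds the transverse tubule and the sarcoplasmic reticulum together. It came nearest to the threshold of the 10, at 179, 163 and 135 CPM in Tsk, against 205, 348 and 334 CPM in WT, a log2 fold change of -0.89 ± 0.23 (edgeR adjusted p = 0.0700). Jph1 passed without WT replicate 1 (log2 fold change -1.07, edgeR adjusted p = 0.0127), and over the alternatives its adjusted p ran from 0.00370 (DESeq2) to 0.238 (edgeR without WT replicate 3).

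Of the calcium buffers, Casq1, the calsequestrin of skeletal muscle and chiefly of its fast fibres, spans 172209894 to 172219868 of chromosome 1, minus strand. It stood at 1615, 1315 and 1225 CPM in Tsk 4, 5 and 6, against 1504, 2944 and 2586 CPM in WT 1, 2 and 3, with WT 1 inside the Tsk range and a log2 fold change of -0.76 ± 0.29 (edgeR adjusted p = 0.195). Casq2, the calsequestrin of heart and slow fibres (chromosome 3, 102086415 to 102146514, plus strand), stood at 19.0, 33.7 and 17.4 CPM in Tsk, against 15.9, 28.7 and 26.4 CPM in WT. The groups overlapped, and its log2 fold change of -0.02 ± 0.30 (edgeR adjusted p = 0.983) turned positive with library totals as the scaling (0.29). Pvalb encodes parvalbumin, the soluble calcium buffer of the fastest fibres. It stood at 2285, 1941 and 1522 CPM in Tsk, against 2081, 4299 and 3897 CPM in WT, overlapping through WT 1, a log2 fold change of -0.84 ± 0.33 (edgeR adjusted p = 0.197).

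Over the 6 libraries Atp2a1 and Casq1 lay close to the mean profile of the members other than Atp2a2 (root mean square distance 0.115 and 0.129 in log2 CPM). Casq2 lay farther from it (0.407). Trdn (0.0679), Cacna1s (0.0954) and Jph1 (0.108) lay nearer, and Ryr1 (0.122) lay between Atp2a1 and Casq1. None of the start regions of Trdn, Cacna1s, Jph1 and Ryr1 is printed. The start regions of the fast-fibre genes Atp2a1 and Casq1 and of Casq2 are shown as examples. Each runs 5′ to 3′ on the gene's strand and ends before the first of the starts that RefSeq and GENCODE give. The letters are from RefSeq's GRCm38.p6 table, and capitals mark each match to the E-box letters CANNTG, the motif bound by myogenic factors among others. The stretches are chr7:126463109-126463323 (minus strand) for Atp2a1, chr1:172219896-172220145 (minus strand) for Casq1 and chr3:102086165-102086414 (plus strand) for Casq2.
Atp2a1: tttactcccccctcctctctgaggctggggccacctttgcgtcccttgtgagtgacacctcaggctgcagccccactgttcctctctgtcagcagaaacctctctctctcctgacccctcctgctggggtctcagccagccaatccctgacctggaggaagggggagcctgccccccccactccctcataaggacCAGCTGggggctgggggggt
Casq1: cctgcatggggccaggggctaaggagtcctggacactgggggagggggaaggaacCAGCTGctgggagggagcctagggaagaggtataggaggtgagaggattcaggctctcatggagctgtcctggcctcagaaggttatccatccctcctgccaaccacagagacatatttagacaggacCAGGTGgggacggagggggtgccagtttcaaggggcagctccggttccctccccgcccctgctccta
Casq2: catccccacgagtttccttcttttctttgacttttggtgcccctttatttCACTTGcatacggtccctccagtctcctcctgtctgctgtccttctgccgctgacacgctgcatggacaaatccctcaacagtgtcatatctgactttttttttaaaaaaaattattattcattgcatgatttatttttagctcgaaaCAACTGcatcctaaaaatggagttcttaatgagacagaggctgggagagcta
The table held 7 windows for 6 of the 10 genes (Pvalb has 2), each from 250 bases before to 50 after the start. CANNTG, read on both strands, was found in 5 of the 7 windows and in 72.3% of all 32851 windows. The window of Ryr1 and 1 of the 2 windows of Pvalb, not printed here, held no match. Its form CAGCTG, which is also counted as CANNTG, was found in 3 of the 7 (Atp2a1, Casq1 and Cacna1s) and in 16.3% of all windows. The MEF2 motif was found in 2 of the 7 (Casq2 and a window of Pvalb) and in 3.19% of all windows. These are matches of letters and no evidence of binding.

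Per kilobase of exon, which allows levels to be set beside each other, the 10 genes differed widely. The level per kilobase was 3140 ± 584 CPM in Tsk and 5507 ± 1733 CPM in WT for Atp2a1, the highest, and 1840 ± 367 CPM in Tsk and 3291 ± 1135 CPM in WT for Pvalb (SD, n = 3 each). Casq1 followed at 710 ± 105 CPM per kilobase in Tsk and 1202 ± 384 in WT, and Ryr1 at 131 ± 20.8 in Tsk and 228 ± 58.0 in WT. Within each library the order Atp2a1, Pvalb, Casq1, Ryr1 was the same in all 6. Cacna1s, Atp2a2, Trdn and Jph1 lay between 31.8 and 78.4 CPM per kilobase on average in Tsk and between 33.0 and 123 in WT, where the ranges of neighbours overlapped. Within each library the order Cacna1s, Trdn, Jph1 was also the same in all 6, while the place of Atp2a2 changed. Casq2 (8.53 in Tsk and 8.65 in WT) and Sln (2.193 in Tsk and 4.89 in WT) were lowest. Exon length is the union over all annotated transcripts, which lowers the value of a gene with many long forms such as Trdn.

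**Figure D2:**
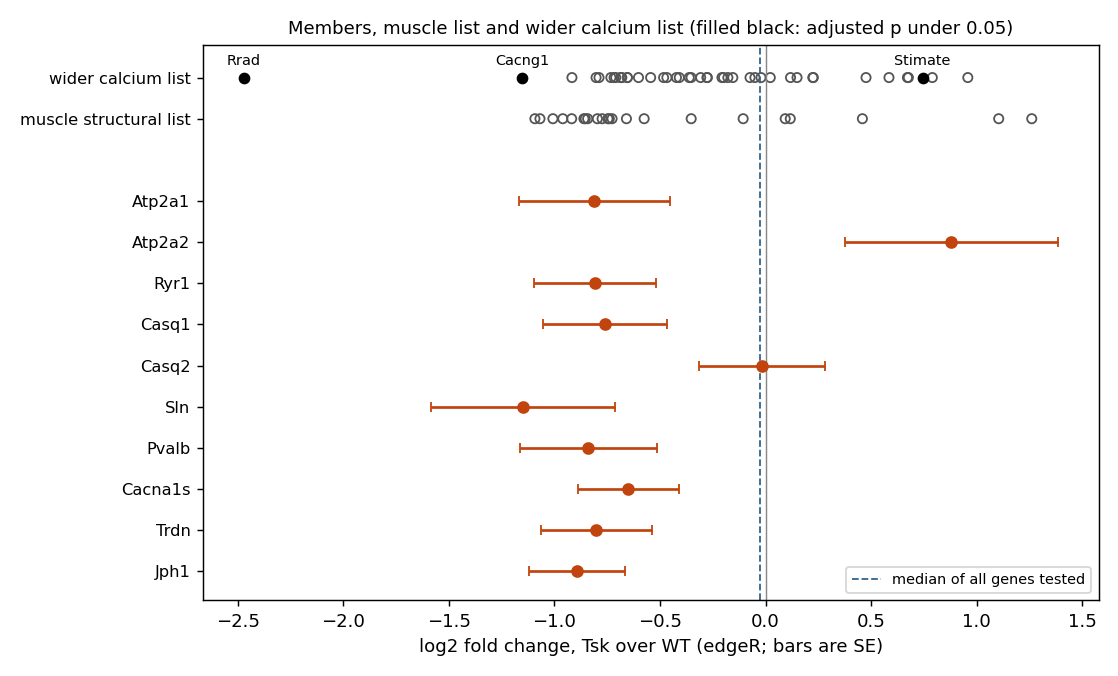
Log2 fold change, Tsk over WT, of the 10 genes with SE from edgeR, and above them each tested gene of the muscle structural list and of the wider calcium list (open circles: not past the threshold). Casq2 lies at -0.02, Atp2a2 at 0.88, Sln at -1.15 and the other 7 members between -0.65 and -0.89, among most of the muscle genes; of the wider list Rrad, Cacng1 and Stimate passed.

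To set the genes against other muscle RNA, each count was divided by the summed counts of the 22 muscle structural genes in the same library. On this scale the 7 genes Atp2a1, Ryr1, Casq1, Pvalb, Cacna1s, Trdn and Jph1 stood within 0.15 log2 units of WT. The log2 difference, Tsk minus WT, was -0.06 for Atp2a1, -0.07 for Ryr1, 0.00059 for Casq1, -0.08 for Pvalb, 0.09 for Cacna1s, -0.04 for Trdn and -0.15 for Jph1. On this denominator Jph1 was the one among these 7 for which the 3 Tsk libraries lay apart from the 3 WT libraries. Its log2 of count over list count was -9.72, -9.70 and -9.87 in Tsk, against -9.60, -9.69 and -9.56 in WT. The nearest values, -9.70 in Tsk and -9.69 in WT, were close. With Ttn and Neb left out of the list, Jph1 differed by -0.13 and the groups were not apart (exact permutation p = 0.2). Per count of the full list, Sln differed by -0.46 with overlapping groups, and by 0.067 without Tsk replicate 4.

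Atp2a2 and Casq2 stood higher per muscle count in every Tsk library than in every WT library. The share of all genes for which this held was not computed. The muscle structural list itself had a median log2 fold change of -0.74, so a gene with an unchanged CPM stands higher on this scale. In CPM the log2 fold change of Casq2 was -0.02. For Atp2a2 the log2 ratio was -9.58, -7.80 and -8.72 in Tsk 4, 5 and 6, against -10.4, -9.71 and -10.8 in WT 1, 2 and 3, a difference of 1.6. For Casq2 it was -13.0, -11.98 and -12.8 in Tsk, against -13.3, -13.3 and -13.2 in WT, a difference of 0.68, which was 0.37 without Tsk replicate 5. For each of these and for Jph1 the exact two-sided permutation p was 0.1, the smallest that 3 against 3 allows, and 0.333 when adjusted over the 10 genes. The differences rest on the denominator. With the mean log2 CPM of the list in its place, the 7 genes differed by -0.61 to -0.37, and for Atp2a1, Pvalb, Trdn and Jph1 every Tsk library lay below every WT library (exact permutation p = 0.1 each). On that scale Atp2a2 differed by 1.13 with the groups apart, while Casq2 differed by 0.21 with overlapping groups (exact permutation p = 0.6). With the same mean without Myh7, chosen after the data were seen, the 7 genes differed by -0.39 to -0.14. All 7 lay apart (exact permutation p = 0.1 each). Atp2a2 differed by 1.36 and Casq2 by 0.44. The 7 genes were grouped by their values on the summed-count scale, with Atp2a2, Casq2 and Sln left out. The share of all genes lying apart was not computed on any of these scales.

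**Figure D3:**
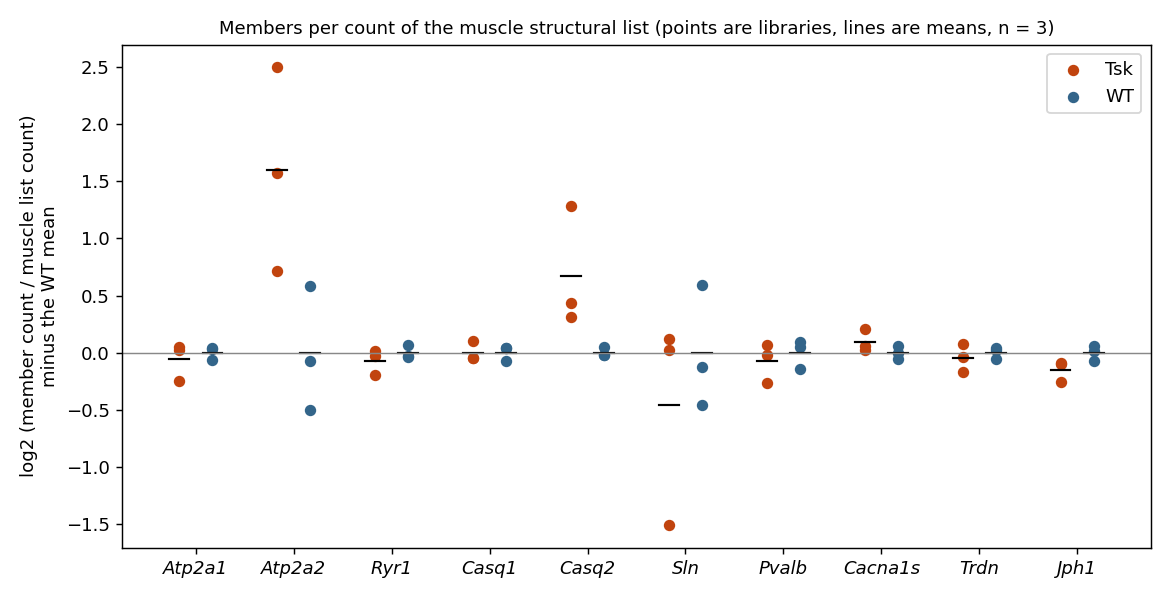
Log2 of each gene's count over the summed count of the muscle structural list, less the WT mean (vertical axis), with a point per library and a line at each group's mean. Atp2a2 and Casq2 have all 3 Tsk points above the WT points, by 1.6 and 0.68 on average. The other genes except Sln lie close to 0 on this denominator. The denominator itself was lower in Tsk, and in CPM Casq2 had a log2 fold change of -0.02.

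The ratio of the pump genes, which does not depend on scaling, was 64.6, 18.5 and 29.1 counts of Atp2a1 for each count of Atp2a2 in Tsk 4, 5 and 6, against 104, 69.9 and 151 in WT 1, 2 and 3. The log2 ratio differed by -1.66, with every Tsk library below every WT library (exact permutation p = 0.1, 0.15 adjusted over 3 ratios). For the calsequestrins, Casq1 to Casq2 stood at 85.1, 39.0 and 70.5 in Tsk, against 94.8, 103 and 97.9 in WT, a log2 difference of -0.67 (exact permutation p = 0.1, 0.15 adjusted over 3 ratios) that was -0.34 without Tsk replicate 5. In WT the calsequestrin ratio hardly varied although muscle RNA did. Both ratios were thus lowest in Tsk 5.

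The 8 slow genes, led by the slow myosin Myh7, summed to 234, 1514 and 670 CPM in Tsk 4, 5 and 6, against 36.4, 1079 and 61.6 CPM in WT 1, 2 and 3. Ranked by this sum and by Atp2a2, the 6 libraries came in the same order, Tsk 5, WT 2, Tsk 6, Tsk 4, WT 3 and WT 1. Myh7 itself was 127, 880 and 417 CPM in Tsk, against 2.28, 659 and 2.36 CPM in WT. None of the 8 slow genes passed, beside 3.42% of all genes that did. The groups overlapped in all 8, where 10.6% of all genes had every Tsk library below every WT library and 14.1% above. The ratio of summed fast to slow counts was 172, 21.9 and 48.4 in Tsk, against 1210, 73.2 and 1098 in WT (exact permutation p = 0.2, also 0.2 adjusted over 3 ratios). The part of slow fibre content in the Atp2a2 and Casq2 values was not tested.

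Markers of other cell types were set beside Atp2a2. The epidermal sum was 7833, 4887 and 4371 CPM in Tsk 4, 5 and 6, against 7319, 4824 and 5702 CPM in WT 1, 2 and 3. Of 8 epidermal genes 1 rose (Lor) and none fell, and of 8 smooth muscle genes 2 rose (Myh11 and Mylk) and none fell, where 2.72% of all genes rose and 0.696% fell. The smooth muscle sum, most of it from Des, which skeletal muscle shares, ran from 1404 to 1596 CPM in Tsk and from 1939 to 2648 CPM in WT. Of 6 heart genes, Nppa, Nkx2-5 and Myl7 were at 0 counts in every library and Myh6 was at most 1.36 CPM in Tsk and 2.53 CPM in WT. Of the 3 that passed the filter, Myh6 and Tnni3 (log2 fold change 0.009 ± 0.47) were not called. Myl4 fell, to 2.49, 2.01 and 1.65 CPM in Tsk 4, 5 and 6, against 13.4, 7.58 and 17.4 CPM in WT 1, 2 and 3 (edgeR adjusted p = 0.00792). Which cells the Myl4 counts came from was not tested. The 6 adipocyte genes summed to 383, 1687 and 264 CPM in Tsk, against 127, 153 and 108 CPM in WT. Tsk 5 was thus also the library richest in fat genes. In all 6 every Tsk library lay above every WT library, beside 14.1% of all genes, with log2 fold changes from 1.81 to 3.50. At an adjusted p under 0.05, 1 of the 6 (Lep) rose, beside 2.72% of all genes. The 6 fibroblast genes, none of which passed, summed to 19608, 18265 and 41972 CPM in Tsk, against 6179, 10341 and 10874 CPM in WT. At an unadjusted edgeR p under 0.05, 4 of these 6 were higher in Tsk, beside 12.1% of all genes. The 10 fast fibre genes, none of which passed, had a median log2 fold change of -0.85 and summed to 40225, 33183 and 32448 CPM in Tsk, against 44047, 78984 and 67685 CPM in WT. Within that list Myh2, the myosin of fast oxidative fibres, differed from the median, at 1279, 1906 and 1285 CPM in Tsk 4, 5 and 6, against 373, 784 and 710 CPM in WT 1, 2 and 3. Every Tsk library lay above every WT library, with a log2 fold change of 1.26 ± 0.32 that did not pass (edgeR adjusted p = 0.0692). Myh1, another fast myosin, stood at 0.09 ± 0.38 with overlapping groups. The part of any of these cell types in the Atp2a2 values was not tested.

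**Figure D4:**
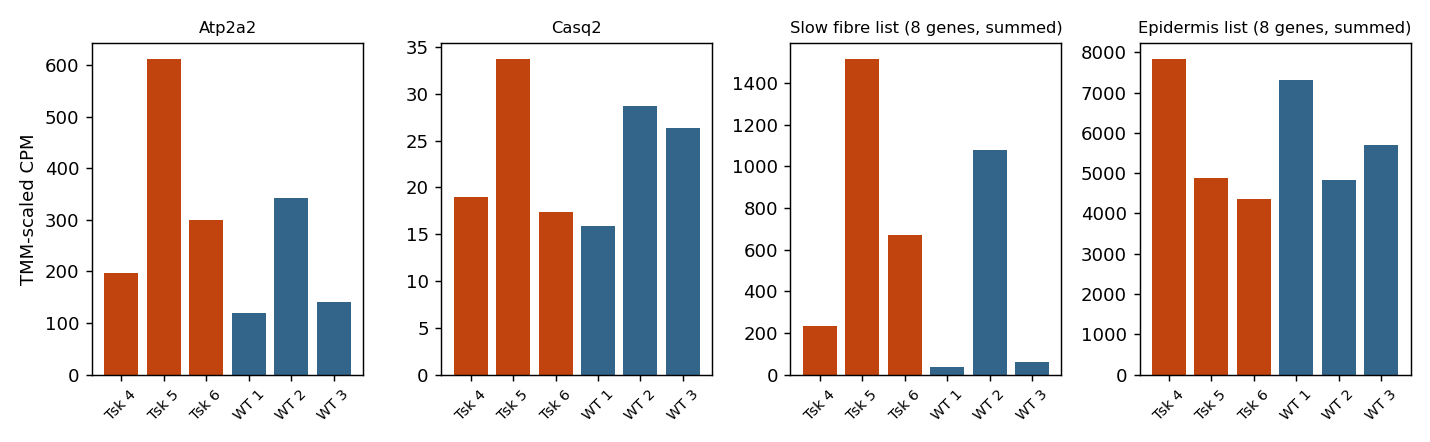
Bars from 0 of TMM-scaled CPM in each library for Atp2a2, Casq2, the sum of the slow fibre list and the sum of the epidermis list, with the 3 Tsk libraries left of the 3 WT libraries. Tsk 5 and WT 2 are highest in Atp2a2, Casq2 and the slow list. In Casq2, WT 3 (26.4 CPM) lies close to WT 2 (28.7 CPM), with slow sums of 61.6 CPM in WT 3 and 1079 CPM in WT 2. Tsk 4 and WT 1 are highest in the epidermis list.

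Among 44 other genes of calcium handling, 43 passed the filter on low counts, 2 fell, 1 rose and 40 did not pass, beside 0.696% of all genes that fell and 2.72% that rose. The list's median log2 fold change was -0.31. Cacng1 encodes the gamma subunit of the same L-type channel as Cacna1s. It fell to 31.6, 30.1 and 27.8 CPM in Tsk 4, 5 and 6, against 58.4, 64.7 and 75.7 CPM in WT 1, 2 and 3, with a log2 fold change of -1.15 ± 0.13 (edgeR adjusted p = 0.00724). Every WT library, WT 1 included, lay well above the highest Tsk library, and Cacng1 passed in each of the 6 fits that left out 1 library. Per count of the muscle list its log2 ratio was -12.2, -12.1 and -12.1 in Tsk, against -11.4, -12.1 and -11.7 in WT, values looked at after the call was known and not tested.

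Rrad, a small GTPase known to inhibit L-type channels, fell to 1.56, 1.82 and 2.78 CPM in Tsk 4, 5 and 6, against 12.6, 7.26 and 14.3 CPM in WT 1, 2 and 3. Its log2 fold change was -2.47 ± 0.32 (edgeR adjusted p = 0.00956), and the call was lost without WT replicate 3 (edgeR adjusted p = 0.0557). Stimate, a partner of the store sensor Stim1 in store-operated calcium entry, rose to 10.6, 11.97 and 13.5 CPM in Tsk, against 7.40, 6.74 and 7.39 CPM in WT. Its log2 fold change was 0.74 ± 0.15 (edgeR adjusted p = 0.0375), and leaving out any library other than WT replicate 1 lost the call, with edgeR adjusted p from 0.0554 to 0.139.

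The other channel and junction genes did not pass. Cacnb1, the beta subunit of the L-type channel, had a log2 fold change of -0.69 ± 0.17 (edgeR adjusted p = 0.0664). Jsrp1, a protein of the junctional sarcoplasmic reticulum, stood at -0.79 ± 0.20 (edgeR adjusted p = 0.0680), and Tmem38b, a potassium channel of the store membrane, at -0.65 ± 0.17 (edgeR adjusted p = 0.0773). Each had all 3 Tsk libraries below all 3 WT libraries, which held for 9 of the 43 genes and for 10.6% of all genes. Itpr1, the release channel of many non-muscle cells, stood at 41.9, 65.5 and 49.6 CPM in Tsk 4, 5 and 6, against 27.5, 38.9 and 31.9 CPM in WT 1, 2 and 3, with all Tsk libraries above WT and a log2 fold change of 0.68 ± 0.19 (edgeR adjusted p = 0.0948). All Tsk libraries lay above all WT libraries in 6 of the 43, beside 14.1% of all genes. Cacnb1, Jsrp1, Tmem38b and Itpr1 were named for the smallest p among the genes not called, so their separation partly follows from that choice. Of the 43, 31 lay below 0 and 12 above, and 53% of all genes lay below 0.

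The 8 genes nearest to the mean profile of the members other than Atp2a2, by the root mean square difference of centred log2 CPM over the 6 libraries, were Clic5, Pgm1, Nt5dc3, Rbm24, Homer1, Cmya5, Reep1 and Hk2. Their differences ran from 0.0434 for Clic5 to 0.0721 for Hk2. None of them passed, and their log2 fold changes ran from -0.70 for Hk2 to -0.85 for Nt5dc3. The profile holds the difference between the groups, so fold changes near those of the members follow from how the 8 were chosen. Among the members Trdn was nearest to that mean at 0.0679, and Atp2a2 farthest at 0.980, followed by Sln at 0.570 and Casq2 at 0.407. Every member except Atp2a2 is itself part of that mean. The distances of these members are therefore not strictly comparable with those of Atp2a2 or of the 8 genes.

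The genes that overlap the members held few counts. The highest was Rabep2, on the strand opposite Atp2a1, with up to 337 counts in Tsk and 271 in WT, where Atp2a1 had at least 185188. Within Trdn, Gm47842 on the opposite strand held up to 157 counts in Tsk and 181 in WT, and Trdn at least 6811. Within Atp2a2, Gm43360 on the same strand held up to 104 counts in Tsk and 62.5 in WT, and Atp2a2 at least 2148.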

How the data were processed

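Per the labels' protocols, RNA of snap-frozen dorsal skin was depleted of ribosomal RNA and made into stranded libraries. Per the submitters' processing notes, bcl2fastq 2.19.1.403, STAR and Partek 7.0 were used on mm10; no source used here names the gene models, the strand setting or how reads were counted. The authors deposited expected counts per gene, rounded here; in each library 30.1 to 32.6% of them were over 0.001 from a whole number. The authors' deposited CPM, scaled to the library total, served an alternative. GENCODE M21 held the same symbol, span and strand for 52904 of 55291 genes, once 1 base was taken off the deposited end.

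The test was that of edgeR 4.0.16, run in R 4.3.3 (TMM, robust quasi-likelihood F-test, filter of 10 counts and 15 in total), with Benjamini-Hochberg adjustment over 19971 genes and a threshold of 0.05. The SE is the log2 fold change over the square root of F. The step was tested on simulated data. Ratios were tested by exact permutation. DESeq2 1.42.0 and limma 3.58.1 were alternatives. Without molecular identifiers, reads may repeat molecules. Named genes were all members, the called genes of the wider list with its next 4 by p, the most abundant or smallest-p genes of marker lists, and the 8 genes nearest in profile with a mean log2 CPM of at least 5. Members and lists were chosen with earlier results of these data known.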

Additional observations from a re-analysis of the deposited data

How the results depend on the processing

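No member passed under RLE size factors, library totals, a filter of 50 counts in 3 libraries, limma-voom, limma-trend on log2 of the deposited CPM plus 0.5, or a muscle covariate without Myh7 (chosen after the data were seen). The count was 1 (Jph1) without the filter and 1 (Jph1) with the muscle score as a covariate, 7 with DESeq2, and 0 to 6 over the fits that left out 1 library. The wider list had 6 calls with library totals, limma-trend or the muscle covariate, 9 without the filter or with DESeq2, and 1 to 17 with 1 library left out, the lowest without WT replicate 3 and the highest without WT replicate 1. Over all genes the count was 1791 with library totals, 1888 with limma-trend (1786 higher, 102 lower), 1157 without the filter, 1586 with DESeq2, 145 with the covariate without Myh7 and 56 to 1363 with 1 library left out. Library totals moved the median of all genes from -0.03 to 0.25, and that of the members to -0.50. Casq2 turned positive with library totals (0.29), limma-trend (0.24), the muscle covariate (0.20) and that without Myh7 (0.46), and ran from -0.38 to 0.16 with 1 library left out. The median of the members per muscle count was -0.52 against the mean log2 of the list, -0.29 without Myh7, and -0.10 to 0.022 with 1 library left out. The cause was not tested. Cacng1 passed in every fit. No paired analysis was possible because the labels number the WT samples 1 to 3 and the Tsk samples 4 to 6, so the groups share no replicate number. Sln, at 27 to 161 counts, is limited by depth.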
